A study of Mus musculus with 6 samples.

Results

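The Notch receptors, their ligands and the Hes and Hey target genes were examined in whole skin of mice that overexpress Hoxc13, by taking every probe set that the platform annotation assigns to Notch1, Notch2, Notch3, Notch4, Jag1, Jag2, Dll1, Hes1, Hes5 or Hey1. Of these 10 genes 9 had a probe set, 14 probe sets in all, out of 8251 named genes on the array. Jag1 was not measured. The samples were total RNA of whole skin from GC13 mice, a transgenic line with added Hoxc13 (3 arrays), and from FVB mice, an albino inbred strain (3 arrays), all at 5 days of age. Hoxc13 encodes a homeodomain protein that regulates hair keratin genes. The labels do not name the promoter that drives the transgene, the number of founder lines, the mice per sample or whether FVB mice were littermates.

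Notch receptors are single-pass membrane proteins that are switched on by ligands of the Jagged and Delta families on a neighbouring cell. Ligand binding lets proteases release the intracellular part of the receptor, which enters the nucleus, joins the DNA-binding protein Rbpj and turns on genes such as Hes1, Hes5 and Hey1, all of which encode basic helix-loop-helix repressors. In skin the pathway is known for its part in the switch of keratinocytes from the basal to the suprabasal layer, in the upkeep of hair follicle lineages and in blood vessels.

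The DNA letters through which Rbpj acts can be seen in the promoter of a target gene. RefSeq promoter windows of assembly GRCm38.p6, from 250 bases before to 50 bases after a gene's start, matched 8 of the 10 genes (all but Hes1 and Hey1) with 9 windows. The Rbpj core TGGGAA was searched on both strands, where its reverse complement is TTCCCA. It was found in 1 of the 9 windows, that of Hes5 (chr4:154960673-154960972, plus strand), and in 25.6% of 32851 mouse windows of the same length. The Hes5 window held 2 matches that do not overlap, and 3.79% of all windows held 2 or more. The Hes5 matches began 226 bases before the start as TTCCCA and 82 bases before it as TGGGAA. An upstream start of Dll1 (chr17:15376883-15377182, minus strand), the ligand gene whose deposited intensities did not overlap between the groups, is shown for contrast and held no match. Capitals mark the match to the Rbpj core in the sequences, which run 5′ to 3′. A match is only a run of letters, and binding was not measured.
Hes5: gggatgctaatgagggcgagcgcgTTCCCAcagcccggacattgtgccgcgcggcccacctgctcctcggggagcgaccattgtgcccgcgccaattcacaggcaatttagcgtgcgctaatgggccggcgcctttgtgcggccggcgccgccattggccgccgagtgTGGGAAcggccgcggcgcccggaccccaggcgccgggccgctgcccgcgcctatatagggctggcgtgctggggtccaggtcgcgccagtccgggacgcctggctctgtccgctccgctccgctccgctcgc
Dll1: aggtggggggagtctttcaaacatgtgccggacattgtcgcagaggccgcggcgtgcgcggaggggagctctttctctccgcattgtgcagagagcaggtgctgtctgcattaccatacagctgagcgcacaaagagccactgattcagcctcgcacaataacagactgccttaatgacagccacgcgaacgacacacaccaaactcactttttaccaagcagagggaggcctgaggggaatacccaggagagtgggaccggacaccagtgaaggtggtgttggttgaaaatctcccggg

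Array quality bore on every comparison. Each array had been brought to a mean intensity of 99.98 with the outer 2% at each end left out, and sums of intensity lay between 1626361 and 1736141. Loss of the 5′ ends of transcripts was read from Gapdh controls, whose 3′ signal divided by the 5′ signal came to 2.22, 9.58 and 2.19 on GC13 replicates 1, 2 and 3, against 0.931, 0.958 and 0.894 on the FVB arrays. The same ratio of the actin controls was 1.26, 3.80 and 1.43 on the GC13 arrays, against 1.36, 1.26 and 1.16 on the FVB arrays. GC13 replicate 2 was the highest array in both, whereas GC13 replicates 1 and 3 lay above FVB by Gapdh and at or near the FVB range by actin. By Gapdh, RNA state and line cannot be told apart. Signal of Eif2s3y, on the Y chromosome, was 3.25, 143 and 4.60 on the GC13 arrays, against 69.4, 98.9 and 79.6 on the FVB arrays, so GC13 replicate 2 also differed from replicates 1 and 3 in this Y-linked gene. The sex-linked gene Uty was 4.87, 34.7 and 7.19 on the GC13 arrays, against 13.3, 15.2 and 13.8 on the FVB arrays. Xist, which is expressed from the inactive X chromosome, was 9.15, 1.07 and 12.6 on the GC13 arrays. On the FVB arrays Xist was 9.95, 11.9 and 11.7. These Xist values were dim and no detection calls were used, so whether Xist was expressed on any array is not known. Skin markers were bright: Krt10, a suprabasal keratin, averaged 2169 in GC13 and 2090 in FVB, and Krt25, an inner root sheath keratin, averaged 2276 in GC13 and 2297 in FVB. The probe sets of the basal keratins Krt5 and Krt14 were dim on all arrays, with highest intensities of 10.6 and 14.2. Hoxc13 had no probe set under the annotation used here, so the overexpressed gene itself was not checked.

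No member of the Notch family passed the test of GC13 against FVB skin across all probe sets. Of the 14 probe sets 11, covering all 9 genes, lay above the dimmest 25% of all probe sets by mean log2 value and were tested, and 3 dimmer ones (Notch4 93928_f_at, Dll1 161634_r_at and Hes5 162069_at) are described by their intensities. Of the 11 tested probe sets 0 passed limma's test at an adjusted p of 0.05, where 44 of 9316 probe sets (0.472%) passed, and the smallest adjusted p among them was 0.248. At an unadjusted limma p under 0.05 there were 3, Notch4, Dll1 and Hey1, where 15.5% of all tested probe sets lay. The tested members had a median log2 fold change of 0.13, with 8 above 0 and 3 below, beside a median of 0.08 and 57.4% above 0 over all tested probe sets. In 2 of the 11, Notch4 and Dll1, all GC13 intensities lay above all FVB intensities, as in 10.6% of all tested probe sets, and in 0 they lay below, as in 12.3%. Notch4 92652_at and Hes5 161051_at passed the filter only through their GC13 arrays, so their places in these counts depend on it. With array weights, a fit that gave GC13 replicates 1, 2 and 3 weights of 4.12, 0.107 and 0.329, 7 of the 11 passed (4 higher in GC13, 3 lower), where 41.3% of all tested probe sets did. All folds here are GC13 over FVB on the scale of log2(intensity + 2) after median centring, which understates the change of dim probe sets. In whole skin, fewer cells of a type and less RNA per cell cannot be told apart.

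**Figure D1:**
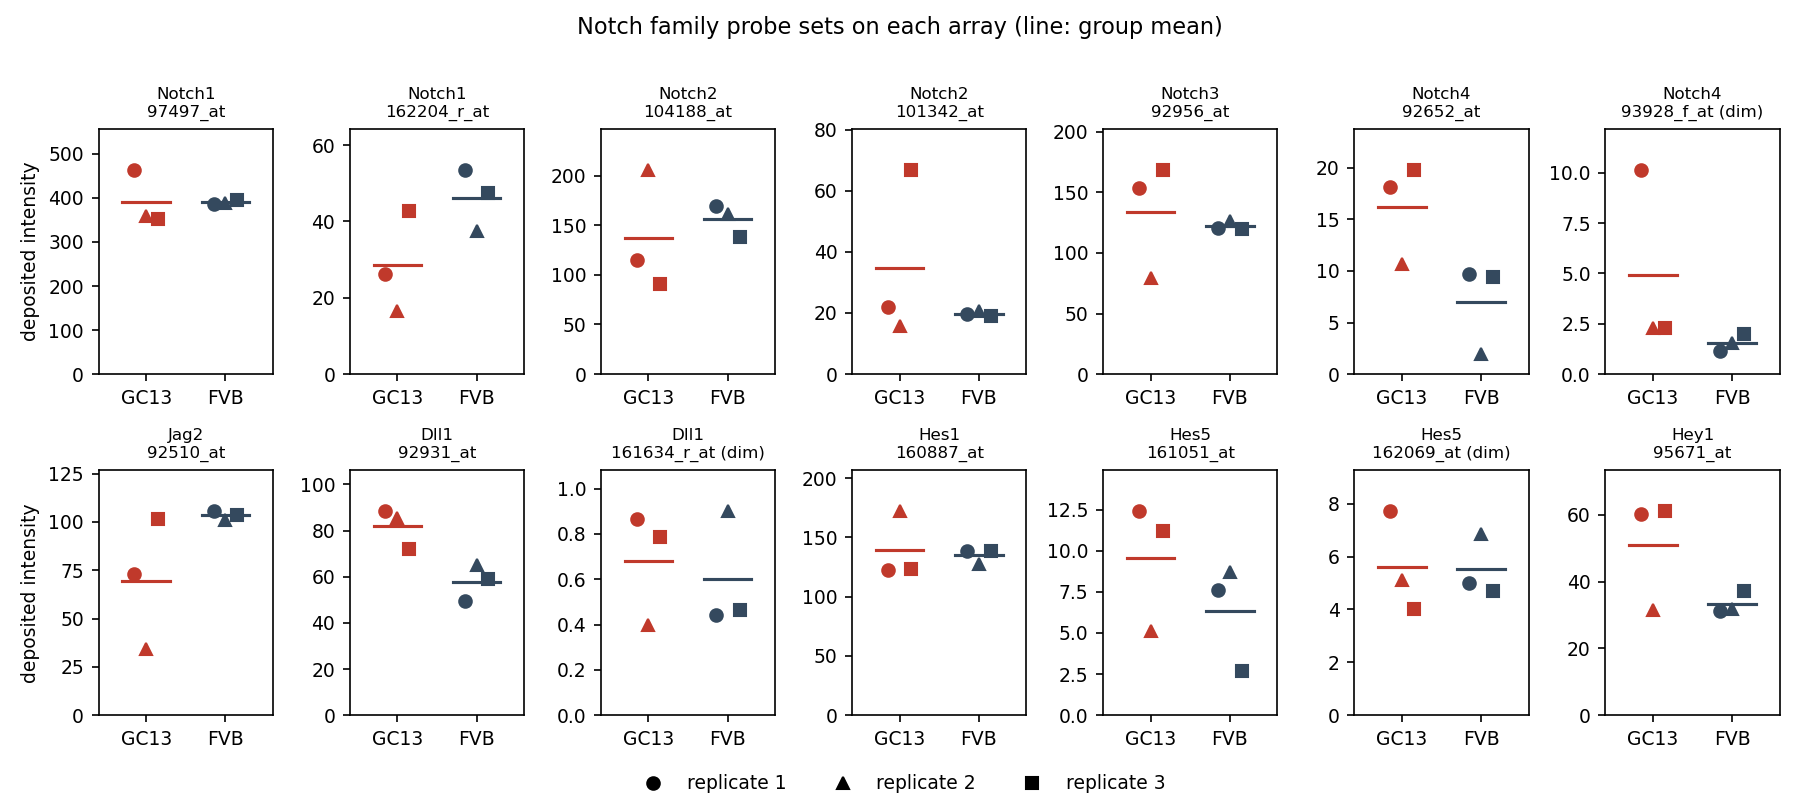
Deposited intensity (linear axis from 0, each panel with its own scale) of the 14 Notch family probe sets on the 3 GC13 and 3 FVB arrays, with a line at each group mean and a marker shape for each replicate number; panels marked dim were below the filter. GC13 points lie wholly above FVB points for Notch4 and Dll1 92931_at, and GC13 replicate 2 lies away from replicates 1 and 3 for Notch2 104188_at, Notch3, Hes1 and Hey1.

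Of the ligand genes, Dll1 had an estimate above 0 and Jag2 one below 0, and neither passed the test. Dll1 (probe set 92931_at), a Delta-family ligand expressed in hair follicle mesenchyme and in epidermis, had intensities of 88.4, 85.4 and 71.9 in GC13, against 49.4, 65.3 and 59.1 in FVB. Every GC13 array was above every FVB array. The means were 81.9 ± 8.82 in GC13 and 57.9 ± 8.01 in FVB (SD, n = 3 each), a 1.48-fold difference with a log2 fold change of 0.56 (95% interval 0.03 to 1.10, SE 0.23, adjusted p = 0.3 by limma). A second Dll1 probe set (161634_r_at) was below 1 on all arrays and gives no level.

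Jag2 (92510_at), a Jagged-family ligand, had intensities of 72.8, 34.1 and 101.4 in GC13, against 105.6, 100.8 and 103.8 in FVB. The FVB arrays were tightly grouped, and GC13 spread from within their range to a value far below it on replicate 2. After centring, all GC13 values lay below all FVB values, a pattern whose share over all tested probe sets was not taken. The means were 69.4 ± 33.8 in GC13 and 103 ± 2.41 in FVB (SD, n = 3 each), with a log2 fold change of -0.62 (95% interval -1.33 to 0.10, SE 0.31, adjusted p = 0.385 by limma). Without GC13 replicate 2 it was -0.28.

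Of the receptor genes, Notch4 had the largest log2 fold change over all 6 arrays, on a dim probe set. Notch4 (92652_at), a receptor mainly of blood vessel endothelium, had intensities of 18.1, 10.7 and 19.8 in GC13, against 9.75, 1.91 and 9.41 in FVB. All GC13 arrays were above all FVB arrays, with GC13 replicate 2 next to the 2 brighter FVB arrays. The means were 16.2 ± 4.84 in GC13 and 7.02 ± 4.44 in FVB (SD, n = 3 each), a 2.31-fold difference with a log2 fold change of 1.21 (95% interval 0.21 to 2.21, SE 0.43, adjusted p = 0.248 by limma). The filter left out probe sets below an intensity of 6.22 on the mean log2 scale. On that scale the FVB arrays alone lay below it, so Notch4 was tested only through its GC13 arrays. Its passing the filter and its being higher in GC13 are therefore not independent. No detection calls were used here. FVB replicate 2 was far below the other FVB arrays, and without it the log2 fold change was 0.68, smaller in size than the -0.81 of the dimmer Notch1 probe set in that comparison. Adding 32 in place of 2 before taking logs brought the log2 fold change to 0.345. The second Notch4 probe set (93928_f_at, of a type whose probes can match several related transcripts) was dimmer still, at 10.1, 2.30 and 2.31 in GC13, against 1.15, 1.53 and 1.997 in FVB.

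Endothelial markers were read beside Notch4. Of the 9 marker genes all were measured, 7 had a log2 fold change above 0, and 0 passed limma's test. Their summed intensity was between 912 and 1197 on the GC13 arrays, against 664 and 798 on the FVB arrays. That gap rested on Eng, at 619, 248 and 369 in GC13, against 192, 193 and 212 in FVB. Without Eng the sums of the groups overlapped. For 3 of them, Kdr, Eng and Vwf, every GC13 array was above every FVB array, and for 1, Cldn5, every GC13 array was below, where 10.6% of all tested probe sets had every GC13 array above and 12.3% every one below. None was listed at 0. The part of endothelial content in the Notch4 values was not tested.

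Notch1, a receptor of suprabasal epidermis and hair matrix keratinocytes, was measured by 2 probe sets that differed. The brighter (97497_at) had 463, 359 and 353 in GC13, against 387, 388 and 396 in FVB. The groups overlapped, and the log2 fold change was 0.07 (95% interval -0.42 to 0.56, SE 0.21, adjusted p = 0.906 by limma). This estimate turned slightly negative with no centring and with quantile normalization, at -0.0048 and -0.0125. The dimmer probe set (162204_r_at, of a type made under relaxed rules of probe choice) had 26.3, 16.6 and 42.8 in GC13, against 53.5, 37.4 and 47.5 in FVB, with a log2 fold change of -0.66 (SE 0.29 with adjusted p = 0.328 by limma). On that probe set GC13 replicates 1 and 2 were below every FVB array and replicate 3 was among them.

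Notch2, which is found in epidermis and in hair follicles, also had 2 probe sets, with estimates of opposite sign. The brighter (104188_at) had 115, 206 and 90.5 in GC13, against 169, 161 and 138 in FVB. GC13 replicates 1 and 3 were below every FVB array and GC13 replicate 2 above all of them, which gave a log2 fold change of -0.20 (95% interval -1.06 to 0.67, SE 0.38, adjusted p = 0.833 by limma). Without GC13 replicate 2 the value was -0.63 (limma adjusted p = 0.081). The dimmer probe set (101342_at) had 21.8, 15.9 and 66.8 in GC13, against 19.6, 20.7 and 19.0 in FVB. Its log2 fold change of 0.58 (SE 0.40) rested on GC13 replicate 3: it was 0.07 without that array.

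Notch3 (92956_at), a receptor of vascular smooth muscle and pericytes that keratinocytes also express, had 154, 79.6 and 168 in GC13, against 121, 127 and 119 in FVB. GC13 replicates 1 and 3 were above every FVB array and replicate 2 below all of them. The log2 fold change was 0.13 (95% interval -0.44 to 0.71, SE 0.25, adjusted p = 0.832 by limma), and 0.37 without GC13 replicate 2 (limma adjusted p = 0.116), while it was 0.02 without GC13 replicate 1 and 0.01 without GC13 replicate 3. Of 8 smooth muscle and pericyte markers 7 were measured, 3 had a log2 fold change above 0 and 4 below, and 0 passed. Cnn1, among those below 0, was tested only through its FVB arrays. Their summed intensity was between 946 and 1172 in GC13, against 983 and 1051 in FVB.

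None of the 3 target genes passed the test over all 6 arrays. Hey1 (95671_at), a repressor known as a Notch target in blood vessels, had 60.4, 31.4 and 61.1 in GC13, against 31.3, 31.7 and 37.1 in FVB. GC13 replicates 1 and 3 were above every FVB array, and replicate 2 lay among them in deposited intensity but just above them after centring. How many of all probe sets parted after centring was not counted. The means were 51.0 ± 16.9 in GC13 and 33.3 ± 3.24 in FVB (SD, n = 3 each), a 1.52-fold difference with a log2 fold change of 0.60 (95% interval 0.05 to 1.16, SE 0.24, adjusted p = 0.293 by limma). Without GC13 replicate 2, Hey1 passed at 0.81 (SE 0.15 with adjusted p = 0.024 by limma), as the 1 member of 11 that did so, in a comparison of 2 GC13 arrays with 3 FVB arrays where 14.8% of all tested probe sets passed and 6% passed with GC13 higher and 8.8% with GC13 lower. In that comparison Eif2s3y also differed between the groups, while the Xist intensities overlapped, and the part of sex was not tested.

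Hes1 (160887_at), a Notch target of suprabasal epidermis, had 122, 172 and 124 in GC13, against 138, 128 and 138 in FVB. GC13 replicates 1 and 3 lay just below the FVB arrays and replicate 2 well above them. The log2 fold change was 0.10 (95% interval -0.50 to 0.71, SE 0.26, adjusted p = 0.877 by limma), and it turned to -0.15 without GC13 replicate 2. Hes5 (161051_at), a target best known from the nervous system, was dim, with 12.4, 5.10 and 11.2 in GC13, against 7.64, 8.69 and 2.70 in FVB. The groups overlapped, and its log2 fold change was 0.57 (95% interval -0.28 to 1.42, SE 0.37, adjusted p = 0.499 by limma). It was 0.18 without FVB replicate 3, the lowest FVB array. The other Hes5 probe set (162069_at) lay between 4.03 and 7.72 in GC13 and between 4.70 and 6.85 in FVB.

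**Figure D2:**
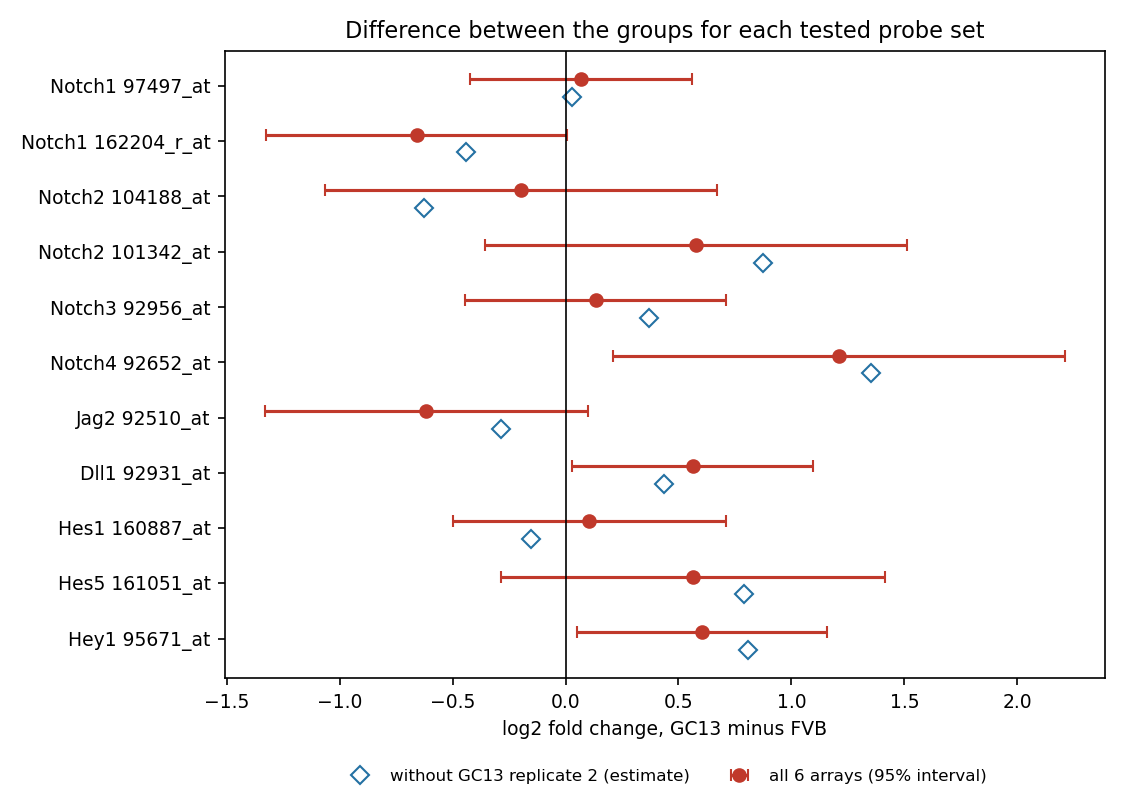
Log2 fold change (x axis, GC13 minus FVB) of the 11 tested probe sets, with filled circles and 95% intervals from all 6 arrays and open diamonds for the estimate without GC13 replicate 2. The unadjusted intervals of Notch4, Dll1 and Hey1 exclude 0, though none of these passed after adjustment over all probe sets, and the diamond of Hes1 is on the other side of 0 from its circle.

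The GC13 arrays also differed among themselves. Relative to the FVB mean, all 3 GC13 arrays lay on 1 side for 6 of the 11 probe sets: Notch4, Dll1, Hey1 and Hes5 161051_at above, Jag2 and Notch1 162204_r_at below. The share over all tested probe sets was not taken for this count, so it is a description only. Notch4 and Hes5 161051_at were tested only through their GC13 arrays, so their lying above the FVB mean is not independent of the filter. For 4 probe sets, both of Notch2, Notch3 and Hes1, GC13 replicate 2 was on the other side of the FVB mean from replicates 1 and 3, as it was for 34.6% of all tested probe sets. For the brighter Notch1 probe set replicate 3 was the one apart. Jag2 minus its FVB mean was -1.28 on GC13 replicate 2 on the centred log2 scale, and -0.46 and -0.11 on replicates 1 and 3. Dll1 was 0.82 above its FVB mean on GC13 replicate 2.

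**Figure D3:**
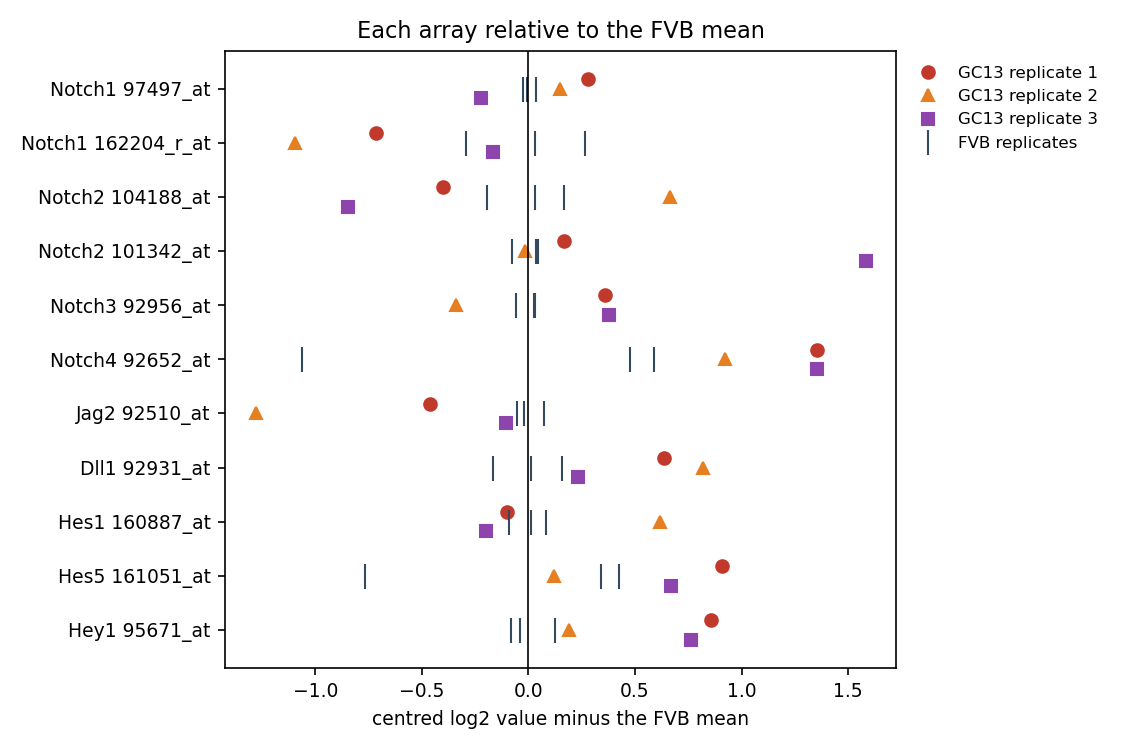
Centred log2 value minus the FVB mean (x axis) on each GC13 array (a colour and shape for each replicate) and each FVB array (dark ticks) for the 11 tested probe sets. Notch4, Dll1 and Hey1 have all GC13 points right of the FVB ticks and Jag2 has all of them left, while Notch2 104188_at, Notch3 and Hes1 have GC13 replicate 2 on the other side of 0 from the other GC13 points. The share of all probe sets that part in this way after centring was not taken, and Notch4 passed the filter only through its GC13 arrays.

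The rest of the pathway was read from 60 further genes in 7 roles, of which 32 had a probe set and 30 were tested, each by its brightest probe set. In limma's test 0 rose and 0 fell, while 3 had an unadjusted p under 0.05, Dlk1, Hes6 and Hes2, where 15.5% of all tested probe sets did. Hes2 passed the filter only through its GC13 arrays, so its place in the counts here depends on the filter. Of the 30 genes 17 had a log2 fold change above 0 and 13 below, with a median of 0.11 beside 0.08 over all tested probe sets, and in 3 the groups did not overlap, where 22.9% of all tested probe sets did not. Without GC13 replicate 2, 7 of the 30 passed, where 14.8% of all tested probe sets did. Dlk1, Hes2 and Aes, a Groucho-related protein, were higher in GC13, and Adam10, Adam17, Kat2b and Numb were lower, of which Adam17 is a membrane protease and Kat2b a histone acetyltransferase.

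Dlk1, a Delta-like protein of mesenchyme that lacks the usual Notch-binding domain, was the 1 tested gene among the other ligands. It had 914, 399 and 1028 in GC13, against 350, 348 and 398 in FVB, with every GC13 array above FVB but replicate 2 only just. Its log2 fold change was 1.06 (SE 0.30 with adjusted p = 0.173 by limma), and 1.38 without GC13 replicate 2 (limma adjusted p = 0.00691).

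Of 6 cleavage genes 3 had a log2 fold change above 0 and 3 below. Adam10, the protease that makes the ligand-dependent first cut in Notch, had 144, 286 and 122 in GC13, against 265, 271 and 221 in FVB, so that only replicate 2 was as high as FVB. For this brighter probe set the value on the log2 scale was -0.47 (SE 0.39), while a dimmer one (100751_at) had 26.4, 12.2 and 32.1 in GC13, against 57.3, 58.5 and 57.9 in FVB, and a log2 fold change of -1.25 (SE 0.27 with adjusted p = 0.11 by limma). On the dimmer probe set every GC13 array was below every FVB array, replicate 2 the lowest. Psen2, a catalytic subunit of gamma-secretase, had a log2 fold change of 0.34.

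In the nucleus, Rbpj, the DNA-binding partner of Notch, had 108, 37.8 and 70.3 in GC13, against 57.1, 50.4 and 56.2 in FVB. The GC13 arrays surrounded the FVB range, and the log2 fold change was 0.34 (SE 0.32 with adjusted p = 0.64 by limma), and 0.63 without GC13 replicate 2. The histone acetyltransferase gene Crebbp had 0.24, and the Groucho co-repressor genes Tle1 and Tle3 had 0.28 and 0.19. Without GC13 replicate 2 these 3 values were 0.13, 0.08 and 0.03. The fringe glycosyltransferase genes Mfng and Rfng, whose products modify Notch sugars and so its choice of ligand, had -0.36 and 0.27, of which Mfng had -0.16 without GC13 replicate 2.

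Among regulators of turnover, Numb, an endocytic inhibitor of Notch, had 83.8, 186 and 83.4 in GC13, against 214, 214 and 176 in FVB, with GC13 replicate 2 inside the FVB range and the others far below it. The log2 fold change was -0.79 (SE 0.39 with adjusted p = 0.381 by limma) and -1.26 without GC13 replicate 2 (limma adjusted p = 0.0113), whereas a dimmer Numb probe set gave 0.44. Fbxw7, which marks the active Notch fragment for breakdown, had a log2 fold change of -0.43. Of the further Hes genes, Hes6, which opposes Hes1, had 39.9, 28.6 and 34.7 in GC13, against 55.0, 47.6 and 54.1 in FVB, every GC13 array below FVB, with a log2 fold change of -0.51 (SE 0.20 with adjusted p = 0.292 by limma). Hes2 was dim, with means of 11.4 ± 7.19 in GC13 and 5.16 ± 1.59 in FVB (SD, n = 3 each) and a log2 fold change of 0.86. It passed the filter only through its GC13 arrays, and GC13 replicate 2, at 5.14, lay inside the FVB range.

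**Figure D4:**
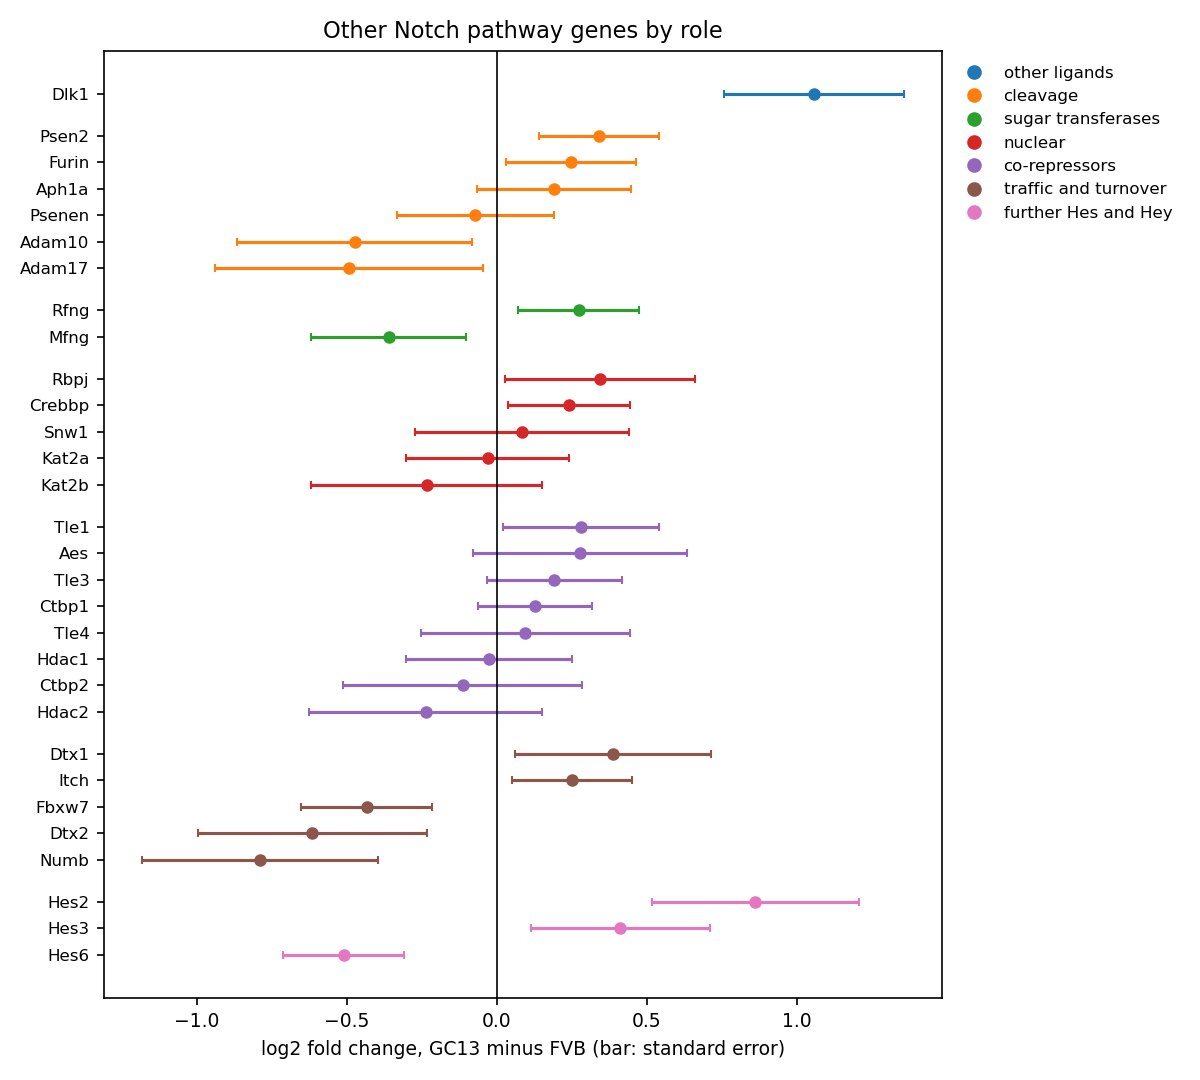
Log2 fold change (x axis, GC13 minus FVB, bars of 1 standard error) of the 30 tested genes of the wider pathway, coloured by role. Dlk1 lies farthest right at 1.06 and Numb farthest left at -0.79.

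Markers of hair follicle and other skin cells were read beside these values, where 12.3% of all tested probe sets had every GC13 array below FVB and 10.6% every one above. Hair matrix markers had 5 of 6 measured genes with every GC13 array below FVB and 0 past the threshold, and summed intensities of 3858 to 4608 in GC13 against 5281 to 5729 in FVB. Foxn1, among these 5, passed the filter only through its FVB arrays, so its place in the count depends on the filter. Of 6 inner root sheath genes 2 had a log2 fold change above 0 and 4 below, and Krt72, a keratin, fell to a mean of 420 in GC13, against 1136 in FVB (log2 fold change -1.37, adjusted p = 0.0351 by limma). Of 6 dermal papilla genes 5 were above 0, and Vcan, a matrix proteoglycan, passed with means of 370 in GC13 and 156 in FVB (log2 fold change 1.32, adjusted p = 0.0489 by limma), while Corin averaged 32.7 in GC13 and 32.3 in FVB and Prom1 52.6 in GC13 and 57.3 in FVB. Krt72 and Vcan lost the call when any 1 FVB array was left out, where 0 of all probe sets passed limma's test and 768 to 946 had an unadjusted p under 0.05. Vcan also lost it without GC13 replicate 1 and without GC13 replicate 3, where the 9 and 11 calls were all lower in GC13. For Krt72 the fits that left out a GC13 array are not given here. All 5 measured melanocyte genes had every GC13 array below FVB, and none passed. Suprabasal markers summed to between 5838 and 10276 in GC13, lowest on replicate 2, and to between 5392 and 5601 in FVB, with 4 of 5 above 0 and 0 past the threshold. In 2 of these 5, Krt1 and Flg, every GC13 array was above FVB, and in 0 every one was below. Krt1 averaged 2829 in GC13 and 1289 in FVB, and Flg 1513 in GC13 and 750 in FVB. Of 6 skeletal muscle genes 4 had every GC13 array above FVB, and 0 passed. The 3 tested basal keratinocyte genes all had a log2 fold change above 0, 1 of 3 Schwann cell genes did, and 0 of either list passed. The T cell genes Cd3e, Cd3g and Cd3d were below the filter, and Thy1, which other cells also express, was the 1 tested. The part of these cell types in the values of Notch1, Jag2, Dll1 and Hey1 was not tested.

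The member with the smallest unadjusted p among genes taken by their brightest probe set was Notch4, and the genes most like it over the 6 arrays were Ltf, Gnb3 and Plscr1, with Pearson correlations of 0.994, 0.987 and 0.985. These 6 points share the group difference and the median centring of each array, and 80 of 6866 genes had a correlation above 0.9. All 3 genes were dim, and Notch4 and Plscr1 had passed the filter only through their GC13 arrays. Ltf, Gnb3 and Plscr1 each had their lowest value on FVB replicate 2, at 3.29, 3.10 and 2.59, as did Notch4. The likeness is thus a description only.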

How the data were processed

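Whole-skin RNA of 3 GC13 and 3 FVB samples was measured on 1 single-sample array each. The deposited values are intensities on a linear scale. Each column fits 1 scaling factor set by the authors to reach a common trimmed mean, as read from the numbers themselves. How probe pairs were summarised and background removed is not given in the sources used here, so the signal over background of a probe set is unknown, and the number of arrays limits the precision. Whether replicates are separate mice is not in the labels, and a p-value here measures only the spread among arrays, which may be technical.

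The 66 control probe sets entered no test. The other 12422 were set on log2(intensity + 2), centred on each array's median (medians differed by up to 0.345), and the dimmest 25% by mean log2 value were dropped, leaving 9316. GC13 was compared with FVB in limma 3.58.1 under R 4.3.3 with lmFit and then eBayes. Tests were two-sided, with p-values adjusted by Benjamini-Hochberg over all 9316 and a threshold of 0.05. The fit was run on simulated data with independent noise and no degraded array, so that run does not bear on the array quality here. Symbols came from the platform annotation, updated through Entrez identifiers. Of 12422 probe sets 10833 had 1 gene symbol, 396 several and 1193 none. Promoters are RefSeq's, assembly GRCm38.p6. The array's own build is not given in the sources used here.

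Named were every member, in each role of the wider pathway the 2 genes with the smallest unadjusted p (by brightest probe set), and the 3 genes most like the leading member. Adam17, Kat2b and Aes, the second probe sets and the markers singled out were named after their values were seen. Members and lists were chosen with earlier results of these data known. Alternatives were a variance trend, array weights, other pseudocounts, scalings and filters, a replicate block and leaving out each array in turn.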

Additional observations from a re-analysis of the deposited data

How the results depend on the processing

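The 11 tested Notch family probe sets had 0 calls in limma in the alternatives run, except array weights (7) and the comparison without GC13 replicate 2 (1, Hey1). With the lowest 50% left out only 8 of the 11 were tested, without Notch4, Hes5 and Notch2 101342_at, and only 25 of the 30 pathway genes. With an unadjusted p under 0.05 there were 3 in the comparison of all arrays. The 30 wider pathway genes had 0 calls in the alternatives run, except with array weights (16) and without GC13 replicate 2 (7). Leaving out 1 array at a time thus gave 0 to 1 family calls and 0 to 7 pathway calls. Over all probe sets the 44 calls (8 higher and 36 lower in GC13) became 83 with a pseudocount of 16 and 119 with one of 32. They became 23 with the lowest 50% of probe sets left out, 28 (2 higher, 26 lower) with no median centring and 3850 with array weights, a fit resting mostly on 1 GC13 array. Leaving out 1 array gave 0 to 1379: 9, 1379 and 11 without GC13 replicates 1, 2 and 3, and 0 without any 1 of the FVB arrays, where 768 to 946 had an unadjusted p under 0.05.

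Of 173 estimates for single members under the alternatives, 6 changed sign, all of members that had not passed. Those of the brighter Notch1 probe set were -0.0048 with no centring and -0.0125 with quantile normalization, and its values ran from -0.0371 to 0.2143 when 1 array was left out. Hes1 had -0.0992 with array weights and ran from -0.1515 to 0.2565 when 1 array was left out. Notch2 104188_at ran from -0.6263 to 0.1295. The causes were not tested.

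Replicate numbers are shared between the groups, but same-numbered samples correlated in their deviations from the group means at -0.0676, 0.18 and 0.357, and 1 of 3 GC13 samples correlated best with its own number. The numbers were therefore not taken as pairs. With the number as a replicate block there were 78 calls over all probe sets and 0 in the family.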
